A study of Capra hircus with 18 samples.

Results

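Among the genes that the 2 deposited tables of goat blood transcripts listed as different between transported and control goats, 77 of 1557 were annotated as something other than protein coding. They were found by their gene_biotype entry, the annotation's class of gene, and every entry other than protein_coding was kept. The 30 min table held 26 of these genes among 430 listed, the 180 min table held 59 among 1247, and 8 stood in both. Whole blood was drawn after transport from uncastrated male Spanish goats, 8 mo of age, and RNA was sequenced with 1 library per goat. The 7 control goats (goats 1, 3, 4, 6, 7, 8 and 9) stayed in pens, 4 goats (21, 22, 24 and 27) were hauled for 30 min or about 50 km, and 7 goats (10, 11, 13, 14, 15, 16 and 17) for 180 min or about 200 km. Both tables used the same control goats. The trips were made on 2 days and the labels do not give the day of a goat, so day and group cannot be told apart here. Each goat was sampled as a separate animal, and the spread between goats is the error used throughout.

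Genes that do not encode protein do several kinds of work. Long intergenic noncoding RNA (lincRNA) is a class of long, often spliced transcripts, most of them with no known role. Small nucleolar RNA (snoRNA) guides the chemical modification of ribosomal RNA, and small Cajal body RNA (scaRNA) does the same for the RNA of the spliceosome. Both are usually cut out of the introns of a host gene. MicroRNA (miRNA) is processed from a hairpin and represses messenger RNA. Immunoglobulin and T cell receptor segments are joined in B and T cells to make antigen receptors. Annotations give these segments classes of their own, although the joined genes do encode protein. Pseudogenes are copies of genes that are presumed to be inactive. The libraries were made from RNA purified on poly-T beads, a step that favours transcripts with a poly(A) tail, which mature snoRNA, scaRNA, miRNA and U7 RNA lack.

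LincRNA made up 44 of the 77 genes. The others were 8 snoRNA, 6 processed pseudogenes, 4 pseudogenes, 3 miRNA, 3 scaRNA, 2 mitochondrial ribosomal RNA (Mt_rRNA), and 1 each of an immunoglobulin constant segment, an immunoglobulin variable segment, a T cell receptor constant segment, a T cell receptor variable segment, a ribozyme, a small nuclear RNA (snRNA) and a gene of the class sRNA. The 44 lincRNA had transcript lengths of 408 to 7579 bases, and the 17 genes of the small RNA classes 58 to 333 bases. Only 15 of the 77 carried a gene name. Coordinates are those of the deposited tables, whose genome build is not given in the sources used here. Against the RefSeq gene table of assembly ARS1.2, 36 of the 77 overlapped a gene that RefSeq calls protein coding, 18 overlapped only other RefSeq genes and 20 overlapped none. The remaining 3 lie on scaffolds and were not compared. Of the 44 lincRNA, 21 overlapped a RefSeq protein-coding gene. Whether the counting used strand is not given in the sources used here, so reads of such overlapping genes cannot be told apart.

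**Figure D1:**
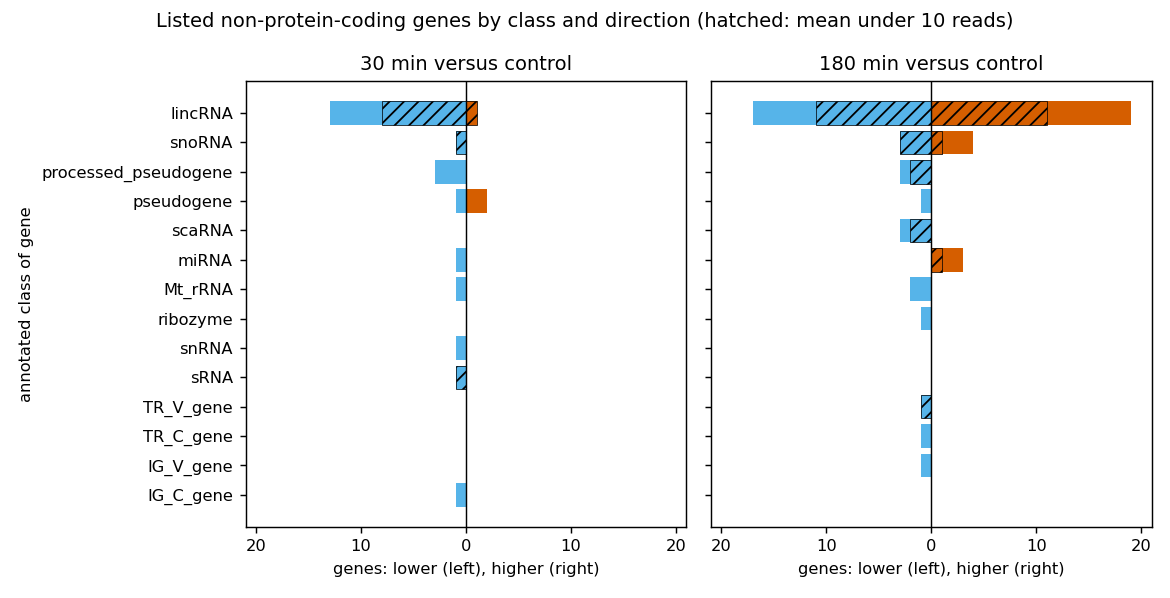
Number of listed non-protein-coding genes with a lower (blue, left) or higher (orange, right) mean log2 level in 30 min (left panel) or 180 min goats (right panel) than in control goats, by annotated class; hatched parts are genes with a mean under 10 reads. At 30 min 13 of 14 lincRNA had lower means, and at 180 min 17 had lower and 19 had higher means.

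The authors listed these genes because they differed between the same goats that are compared here, so the differences describe what was listed and are no independent evidence of a change. Levels are normalized counts, reads divided by a size factor for each goat. Differences are those of mean log2(normalized count + 1), transported minus control, with their standard error (SE), a scale that understates the change of genes with low counts. At 30 min, 3 of the 26 genes had a higher and 23 a lower mean, with a median difference of -1.62, against -0.92 over all 430 listed genes. At 180 min, 26 of the 59 had a higher and 33 a lower mean, with a median of -0.96 against 0.68 over all 1247. In bulk blood, fewer cells of a type and less RNA per cell cannot be told apart.

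With limma at an unadjusted p under 0.05, 11 of the 26 genes were called at 30 min, 2 higher and 9 lower. That share is 42.3%, beside a background of 46.0% over all listed genes of the table (21.6% higher and 24.4% lower). At 180 min 31 of the 59 were called, 14 higher and 17 lower. That share is 52.5%, beside a background of 62.4% (36.8% higher and 25.6% lower). Groups that did not overlap at all were found for 1 of the 26 genes (background 8.14%) and for 0 of the 59 (background 3.05%). With edgeR the shares called were higher, and at 30 min lay above the background, at 80.8% beside 70.7% with the deposited size factors and 73.1% beside 55.6% with TMM factors. At 180 min they were 79.7% beside 81.6% and 74.6% beside 58.1%, and with DESeq2 81.4% beside 63.5%. The count of groups without overlap at 30 min was 5 without goat 27 and 4 without control goat 9. No share over all listed genes is given with those goats left out, and the 8.14% does not apply to these counts. When each goat was centred on the median listed gene, the calls at 30 min became 3 higher and 1 lower, and those at 180 min 13 higher and 22 lower. Over all listed genes of the tables the same centring called 29.3% higher and 2.09% lower at 30 min, and 24.9% higher and 34.2% lower at 180 min. Of the 11 calls at 30 min, 4 held when any single goat was left out, and of the 31 at 180 min, 24 did. The matching share over all listed genes is not given, so these counts set the genes apart from no others. The calls lost in this way were those of ENSCHIG00000001450, ENSCHIG00000002014, ENSCHIG00000003383, U7 snRNA, ENSCHIG00000007186, ENSCHIG00000011246 and ENSCHIG00000020216 at 30 min, and those of RMRP, ENSCHIG00000004084, ENSCHIG00000004523, RF00322, ENSCHIG00000007301, ENSCHIG00000007521 and ENSCHIG00000009419 at 180 min. The difference moved by over 1.5 times without some single goat in 10 of the 26 genes and in 21 of the 59. For these counts too no share over all listed genes is given.

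Read depth was low for many of these genes. A mean under 10 reads per goat was found for 11 of 26 (42.3%) at 30 min and 32 of 59 (54.2%) at 180 min, against 25.2% and 18.6% of the listed protein-coding genes. The median gene had a mean of 12.6 reads at 30 min and 9.43 reads at 180 min, against 89.1 and 281 for protein-coding genes. All together the 26 genes took 2.07% and the 59 genes 0.447% of the reads of the listed genes. The effective library sizes ran from 10443023 to 39473244 in control goats, from 13992574 to 22855051 in 30 min goats and from 11290309 to 34125715 in 180 min goats. A count of 0 allows up to 3 reads, which equals 5.68 normalized counts in control goat 8, the shallowest library, and 1.43 in control goat 7 in the 30 min table. At that floor, with no transported goat above 3 reads, stood 11 of the 26 genes at 30 min and 11 of the 59 at 180 min. At 30 min 8 of those 11 had no read in any transported goat. No control goat was above 3 reads in 1 of the 26 genes and 6 of the 59. Among listed protein-coding genes no transported goat was above 3 reads in 86 of 404 at 30 min and 58 of 1188 at 180 min. No control goat was above 3 reads in 8 and 43 of them.

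A single goat often carried a gene. In 9 of the 26 genes (34.6%) and 19 of the 59 (32.2%), more than 50% of the normalized total came from 1 goat, against 18.3% and 14.1% of the protein-coding genes. This went with depth. Of the genes with a mean under 10 reads, 8 of 11 at 30 min and 17 of 32 at 180 min were held by 1 goat in this way, and of the others 1 of 15 and 2 of 27. Protein-coding genes less often had few reads, and their shares are not split by depth here. Class of gene and depth therefore cannot be told apart in this comparison. Control goats 3 and 8 both stood above every other control goat in 6 of the 10 genes with few reads and a lower mean at 30 min, and in 10 of 19 at 180 min. Their median share of the control total in those genes was 88.5% and 78.8%. No matching values are given for protein-coding genes with few reads, so these do not set the genes apart from them. Among all genes with a lower mean, the highest goat was control goat 3, 8 or 9 as follows. At 30 min these were 39.1%, 21.7% and 34.8% of the genes not protein coding, and 25%, 35.4% and 33.2% of the protein-coding genes. At 180 min the shares were 36.4%, 24.2% and 21.2%, against 14.4%, 25.8% and 29.2%. Among the 13 genes with few reads and a higher mean at 180 min, goat 10 was the highest 180 min goat in 9, with a median share of 71.3% of that group, and had no read in 4. Here too protein-coding genes with few reads were not counted. Among all genes with a higher mean, goat 10 was the highest of all goats in 14 of 26 (53.8%) that were not protein coding and in 57.8% of the protein-coding genes. Without control goats 3 and 8, a choice made after seeing the data, limma called 4 genes at 30 min (1 higher and 3 lower) and 25 at 180 min (14 higher and 11 lower), or 15.4% and 42.4%. The same fit called 30.5% and 51.4% of all listed genes. The count at 30 min was 6 without control goat 8 alone, 6 without goat 21 and 7 without goat 24. No share of all listed genes is given for those 3 fits, so a fall in all listed genes cannot be told apart from one in these genes. The part of these goats in the listing was not tested.

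**Figure D2:**
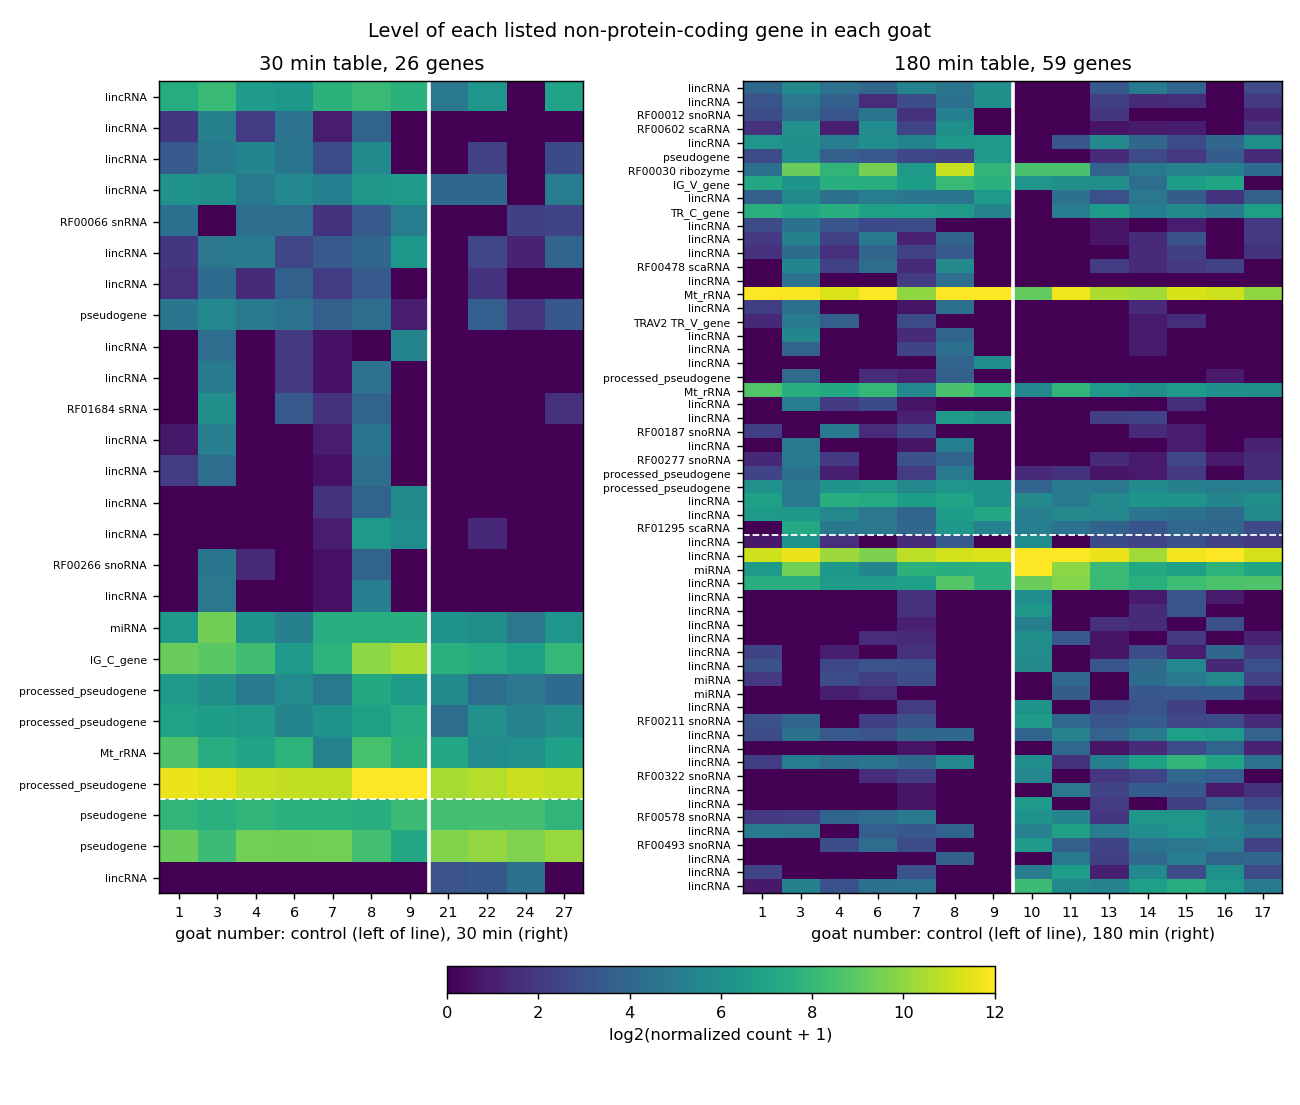
Level of every listed non-protein-coding gene (lines of the heat map, ordered from the lowest to the highest difference of the means) in every goat (columns, control goats left of the white line), as log2(normalized count + 1). Among genes with few reads (mean under 10) and a lower mean, control goat 3 was often the highest. It was highest in 7 of 10 such genes at 30 min and in 11 of 19 at 180 min. Control goat 8 was highest in 1 and 6 of them, and control goat 9 in 2 and 1. In the lower right block goat 10 is often the brightest.

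**Figure D3:**
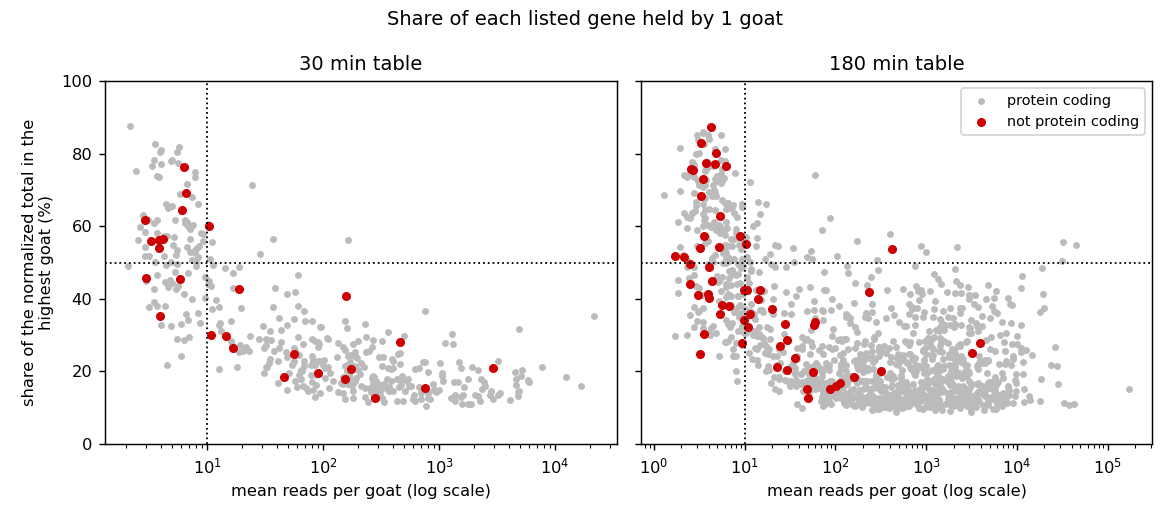
Share of the normalized total that the highest goat holds (vertical axis, %) against mean reads per goat (horizontal axis, log scale) for each listed gene, red for genes that are not protein coding and grey for protein-coding genes, with dotted lines at 10 reads and at 50%. Of the red points above 50%, 8 of 9 at 30 min and 17 of 19 at 180 min lie left of the line at 10 reads.

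Antigen receptor segments had lower means wherever they were listed. ENSCHIG00000018411 (chromosome 17, 193092 to 193412, minus strand) is annotated as an immunoglobulin constant segment, which encodes the invariant part of an antibody chain. In RefSeq it overlaps a V segment, LOC102176353, and a protein-coding gene, LOC106503064, and no C region. It was at 199, 165, 116 and 253 normalized counts in 30 min goats 21, 22, 24 and 27. In control goats it ran from 98.1 to 1365 with a median of 494. The 2 highest values were those of control goats 9 and 8 (1365 and 1004), and all 30 min goats lay inside the control range. The difference was -1.29 (SE 0.65).

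Among the processed pseudogenes of the 30 min table, 2 lay on chromosome 21 within spans that RefSeq gives as immunoglobulin C regions, ENSCHIG00000006729 (69042890 to 69043036) and ENSCHIG00000011246 (69101848 to 69101931). ENSCHIG00000006729 was at 1362, 1630, 2079 and 1825 in the 30 min goats, and between 1845 and 6545 with a median of 2759 in control goats. Here too control goats 9 and 8 were highest (6545 and 5842), and 3 of the 4 transported goats lay below every control goat. Its difference was -0.84 (SE 0.41). Per length it had the highest level of the 26 genes, at a mean of 643 FPKM in 30 min and 1243 FPKM in control goats. ENSCHIG00000011246 was at 19.1, 67.1, 38.6 and 59.4 against 42.9 to 176 with a median of 106, a difference of -1.18 (SE 0.43).

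At 180 min the immunoglobulin variable segment ENSCHIG00000009419 (chromosome 11, 46809122 to 46809442), which encodes part of an antigen-binding site, ran from 0 in goat 17 to 133 in goat 16 with a median of 61.9, against 72.8 to 271 with a median of 186 in control goats. Of the 7 transported goats, 4 lay below every control goat, and the difference was -2.11 (SE 0.89), or -1.24 without goat 17. The T cell receptor constant segment ENSCHIG00000007301 (chromosome 4, 37490865 to 37491008) ran from 0 in goat 10 to 111 in goat 17 with a median of 35.8, against 40.0 to 194 with a median of 113. Again 4 of 7 lay below every control goat, and the difference was -1.90 (SE 0.85), or -1.08 without goat 10. The T cell receptor alpha variable segment TRAV2 had no read in 5 of 7 transported and 3 of 7 control goats, and control goat 3 held 57.4% of its total.

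Protein-coding markers of the cells that use these segments were counted beside them. Of 10 B cell markers, 4 were listed at 30 min (BLK, CD79A, CD79B and MS4A1), all with lower means and 0 called by limma at an unadjusted p under 0.05 (4 by edgeR at the deposited size factors, 1 by edgeR with TMM factors and 1 by DESeq2). Their summed level was 8528 to 11998 in transported against 8868 to 28276 in control goats. Of 10 T cell markers 0 were listed at 30 min. At 180 min 6 were listed, all with lower means and 5 called lower, with sums of 4449 to 9019 against 8064 to 15344. Over all listed genes limma called 46.0% at 30 min, and 36.8% higher and 25.6% lower at 180 min. Only MS4A1 of the B cell markers was listed at 180 min, called lower, at 1635 to 4769 against 3759 to 5196. From a list of 30 genes of antigen receptor assembly and signalling, 4 were listed at 30 min with 0 called, and 7 at 180 min with 5 called lower and 0 higher. Of 11 neutrophil markers 4 were listed at 180 min and all were called higher, with sums of 60072 to 182925 against 18725 to 77228, as were 3 of 4 monocyte markers and 1 of 6 NK cell markers. None of these 3 lists had a gene in the 30 min table, and no red cell or platelet marker was in either. The part of cell numbers in the levels of the segments was not tested.

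The mitochondrial ribosomal RNAs are the structural RNAs of the ribosome inside mitochondria, and both were listed with lower means. The larger, ENSCHIG00000000004 (mitochondrial genome, 1092 to 2664), ran from 550 in goat 10 to 3381 in goat 11 with a median of 1481 at 180 min, against 1042 to 15280 with a median of 4515 in control goats. Control goats 1 and 8 were highest, at 15280 and 9756, and 2 of the 7 transported goats lay below every control goat. Its difference was -1.54 (SE 0.56).

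The smaller, ENSCHIG00000000002 (69 to 637), stood in both tables. It was at 149, 55.1, 66.9 and 115 in the 30 min goats and 39.6 to 398 with a median of 207 in control goats, a difference of -0.99 (SE 0.58). At 180 min it ran from 46.3 to 229 with a median of 63.2, against 47.0 to 429 with a median of 219, a difference of -1.31 (SE 0.47). The groups overlapped in both tables. Control goat 7 lay below all transported goats at 30 min and above only the lowest, goat 10, at 180 min, and goat 11 was the highest transported goat in both ribosomal RNAs at 180 min.

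Among the pseudogenes, the single gene of all 26 whose groups did not overlap was ENSCHIG00000020216 (chromosome 9, 64147979 to 64148800, minus strand), which lies at the position of CITED2 in RefSeq, where that gene is protein coding. CITED2 is a transcriptional coregulator that limits the response to low oxygen. The gene was at 854, 1066, 807 and 1139 in 30 min goats and 149 to 703 with a median of 626 in control goats. The lowest of the transported values lay above the highest control value, and the difference was 1.12 (SE 0.45). ENSCHIG00000025850 (chromosome 8, 44718345 to 44719208) lies at the position of FAM122A, within the span of PIP5K1B, both protein coding in RefSeq. It was at 328, 352, 348 and 228 in 30 min goats against 187 to 299 with a median of 204, with goat 27 inside the control range and the others above it. Its difference was 0.50 (SE 0.24).

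The other pseudogenes had lower means. ENSCHIG00000003383, within ARID4B in RefSeq, was at 51.5, 19.2, 25.7 and 17.6 against 26.7 to 155 with a median of 59.2 (difference -1.24, SE 0.50). ENSCHIG00000016371 differed by -1.90 (SE 0.90, and -1.17 without goat 21) at means of 5.64 ± 5.22 (SD, n = 4) and 21.9 ± 14.2 (SD, n = 7). At 180 min ENSCHIG00000007454 was at 14.2 to 52.8 with a median of 31.8 against 31.0 to 85.1 with a median of 68.9, and 3 transported goats lay below every control goat (difference -0.96, SE 0.31). ENSCHIG00000016825 differed by -2.27 (SE 0.75), with 5 of 7 transported goats below every control goat but a control range of 3.93 to 86.6. The remaining processed pseudogenes, ENSCHIG00000013322 and ENSCHIG00000019644, had means of 4 and 1.71 reads per goat.

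**Figure D4:**
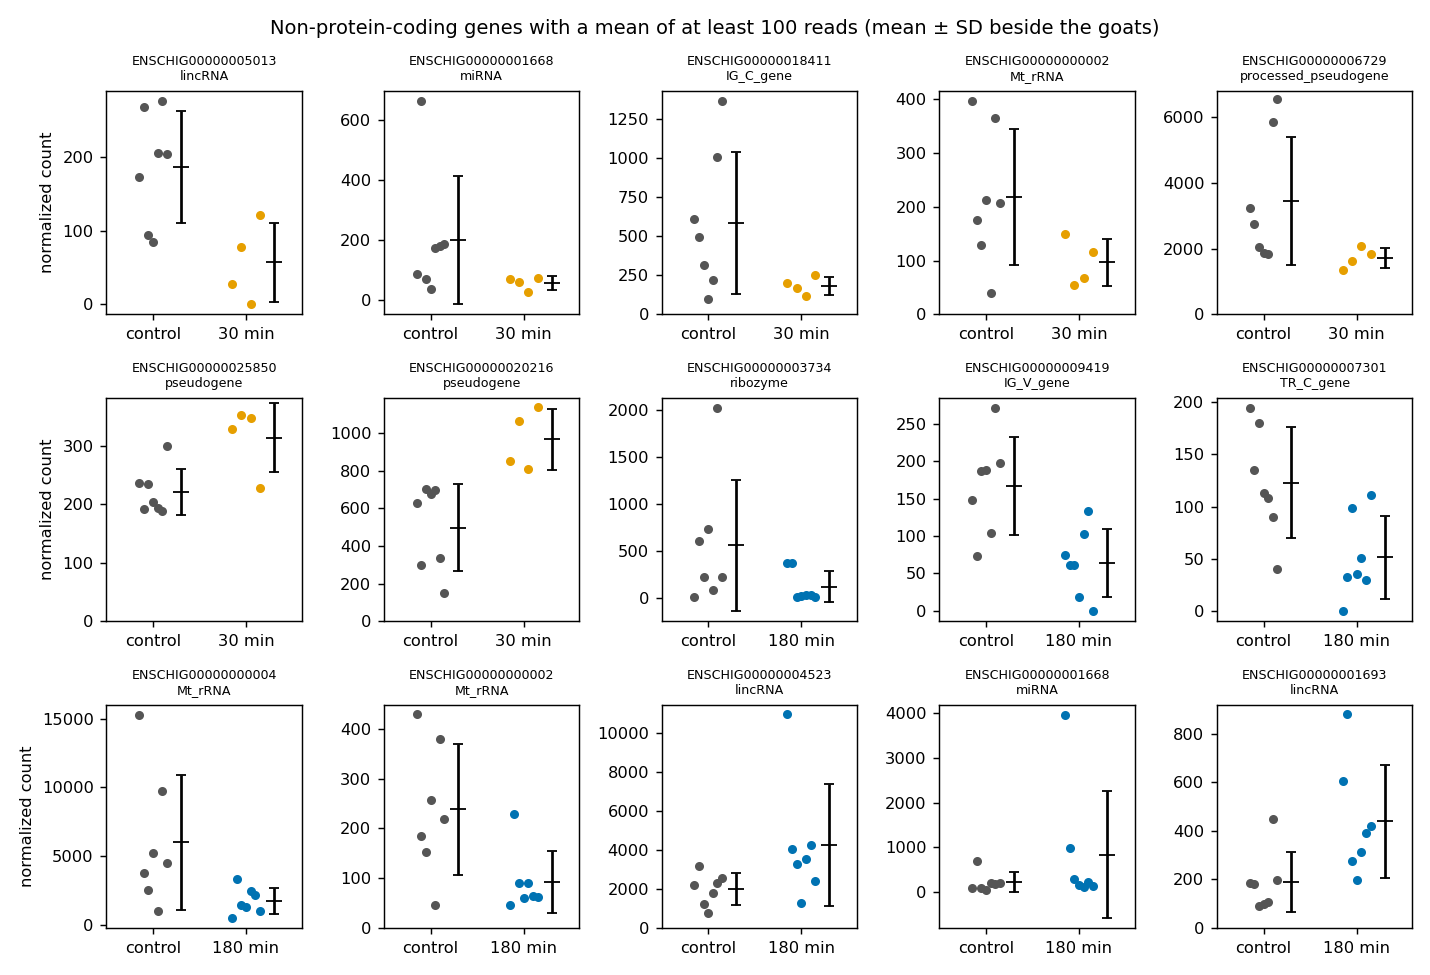
Normalized counts (linear axes) of the non-protein-coding genes with a mean of at least 100 reads per goat, 7 in the 30 min table and 8 in the 180 min table, with 1 point per goat in order of goat number and the mean ± SD beside each group. The pseudogene ENSCHIG00000020216 is the only panel in which the groups do not overlap, and goat 10, the leftmost 180 min point, stands alone at 10952 for the lincRNA ENSCHIG00000004523 and at 3971 for the miRNA ENSCHIG00000001668.

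All 3 miRNA genes are unnamed in the tables. ENSCHIG00000001668 (chromosome 19, 8929131 to 8929217, minus strand) lies within a RefSeq gene that is protein coding, LOC108638221. It was at 71.4, 59.9, 25.7 and 74.8 in 30 min goats against 36.8 to 664 with a median of 175 in control goats, and all but 1 of the transported goats lay inside the control range (difference -1.33, SE 0.68). At 180 min it ran from 113 to 3971 with a median of 218, against 44.4 to 697 with a median of 187. Goat 10 held 53.8% of the total at 3971, goat 11 followed at 994, and the others lay inside the control range (difference 1.18, SE 0.80, and 0.59 without goat 10).

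ENSCHIG00000009214 (chromosome 19, 22609255 to 22609339), at the position of MIR22 in RefSeq, ran from 0 to 49.6 with a median of 16.4 at 180 min against 0 to 6.23 with a median of 3.0. Of the 7 transported goats, 4 were above every control goat and 2 had no read (difference 1.64, SE 0.94). ENSCHIG00000001899 (chromosome 5, 54993426 to 54993509), within CTDSP2 in RefSeq, had at most 1 read in every control goat and 0 to 13 reads in 180 min goats. Again 4 of 7 were above every control goat (difference 1.69, SE 0.66), at a mean of 3.21 reads per goat.

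The snoRNA genes were split in direction. At 30 min the single one listed, SNORD4B (RF00266), within RPL23A in RefSeq, had no read in any transported goat and 0 to 22 reads in control goats, where goat 3 held 61.8%. At 180 min 4 of 7 had a higher mean and 3 a lower one, and 4 of the 7 had a mean under 10 reads. SNORD89 (RF00578; chromosome 11, 6103702 to 6103815), a guide of the C/D box family, ran from 2.76 to 81.8 with a median of 43.4 against 0 to 27.8 with a median of 3.58, and 5 of 7 transported goats were above every control goat (difference 2.63, SE 0.90). RF00493, within SSH2 in RefSeq, ran from 4.20 to 89.0 with a median of 23.0 against 0 to 18.5 with a median of 0 (difference 2.78, SE 0.83). The groups overlapped through goats 13 and 17 for both genes, and also through goat 11 for RF00493.

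SNORD35A (RF00211), within RPL13A in RefSeq, and RF00322 were highest in goat 10, which held 55.1% and 54.2% of their totals (differences 1.72, SE 0.82, and 1.98, SE 0.80). On the lower side, RF00012, within TEX14, had no read in 5 of 7 transported goats against 0 to 35.3 with a median of 8.24 in control goats (difference -2.69, SE 0.70). SNORD102 (RF00187), within RPL21, and SNORD49B (RF00277) had means of 3.29 and 4.36 reads per goat, with differences of -1.26 (SE 0.68, and -0.72 without control goat 4) and -1.13 (SE 0.74, and -0.67 without control goat 3). None of the protein-coding genes that hold these snoRNA was itself listed.

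The 3 scaRNA were listed at 180 min only and had lower means. Small Cajal body-specific RNA 21 (RF00602), within CHD3, was at 0 to 2.40 with a median of 0.552 against 0 to 66.8 with a median of 4.53, and control goats 3, 8 and 6 carried it at 66.8, 62.8 and 53.6 (difference -2.68, SE 0.94). Small Cajal body-specific RNA 5 (RF00478), within ATG16L1, showed the same control goats on top, at 49.1 in goat 8, 44.1 in goat 3 and 18.5 in goat 6 (difference -1.63, SE 0.93). Small Cajal body-specific RNA 7 (RF01295), within KPNA4, was at 6.0 to 33.8 with a median of 14.4 against 0 to 149 with a median of 27.8 (difference -0.75, SE 0.86, and -1.52, -0.32 and -0.46 without control goats 1, 3 and 8 in turn). For it the transported goats lay wholly inside the control range.

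The ribozyme was the RNA component of the mitochondrial RNA processing endoribonuclease, RMRP (RF00030; chromosome 8, 59648916 to 59649197, minus strand), which cuts precursors of ribosomal RNA. It was at 12.7 to 372 with a median of 37.6 in 180 min goats and at 20.3 to 2023 with a median of 229 in control goats. Goats 10 and 11, both at 372, stood apart from the other transported goats, which reached no more than 38.9, and control goat 8 alone held 42.0% of the total. The difference was -2.27 (SE 1.02). At 30 min U7 snRNA (RF00066), which directs the processing of histone messenger RNA ends, was at 0, 0, 3.86 and 4.40 against 0 to 33.5 with a median of 18.4 (difference -2.14, SE 0.97). The sRNA RF01684 had a single control goat, goat 3, with 69% of its total. Of 48 proteins that bind or process such small RNAs, 0 were listed at 30 min and 2 at 180 min. These were SNRPD1 and SNRPF of the spliceosome core, with differences of -0.67 and -0.76. Both were called lower, as were 25.6% of all listed genes at 180 min.

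Of the 14 lincRNA at 30 min, 13 had a lower mean and 9 had a mean under 10 reads. The best read was ENSCHIG00000005013 (chromosome 11, 103178919 to 103187945, minus strand), which overlaps CCDC187 in RefSeq. It was at 27.4, 77.5, 0 and 122 against 84.3 to 276 with a median of 204, so that 3 of 4 transported goats lay below every control goat (difference -2.91, SE 1.09, and -1.41 without goat 24). ENSCHIG00000007186 was at means of 2.37 ± 2.81 (SD, n = 4) and 24.1 ± 20.1 (SD, n = 7), a difference of -2.62 (SE 1.07). ENSCHIG00000001450 ran from 0 to 14.3 against 2.79 to 82.0, with control goat 9 highest (difference -2.08, SE 0.92). The single lincRNA with a higher mean, ENSCHIG00000004736 (chromosome 27, 20948155 to 21085700), had no read in any control goat and was at 7.47, 8.79, 20.6 and 0 in 30 min goats. Its mean was at least 2.87-fold higher than the floor of 3 counts per control library, at no more than 16 reads in any goat, or at least 1.69-fold without goat 24.

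At 180 min the 36 lincRNA were divided, 19 with a higher and 17 with a lower mean, and limma called 10 higher and 8 lower, beside the background of 36.8% and 25.6% of all listed genes. The best read was ENSCHIG00000004523 (chromosome 18, 64755463 to 64759446), at the position of the RefSeq protein-coding gene LOC106501822. It ran from 1293 to 10952 with a median of 3549 against 790 to 3164 with a median of 2222. Goat 10 stood highest, 5 of 7 transported goats were above every control goat and goat 14 was below the control median (difference 0.94, SE 0.43). ENSCHIG00000001693 (chromosome 5, 112311676 to 112391696, minus strand) overlaps NFAM1, a membrane receptor gene of immune cells, in RefSeq. It ran from 197 to 879 with a median of 390 against 90.6 to 448 with a median of 181, and control goat 8 at 448 was the only control goat above 199 (difference 1.28, SE 0.41).

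Among the lincRNA, the highest differences were those of genes with low levels in control goats. ENSCHIG00000002042 (chromosome 13, 43937129 to 43956149) ran from 28.8 to 295 with a median of 88.8 against 0 to 38.2 with a median of 7.21, and 6 of 7 transported goats were above every control goat (difference 3.83, SE 0.90). ENSCHIG00000005614 ran from 1.10 to 102 with a median of 32.0, and 5 of the 7 control goats had no read (difference 3.51, SE 0.87). ENSCHIG00000005217 was at 15.7 ± 12.1 (SD, n = 7) against 1.68 ± 4.45 (SD, n = 7), with 6 of 7 control goats at 0 (difference 2.93, SE 0.80). ENSCHIG00000005175, within OTOA in RefSeq, was at 24 to 111 against 0 to 28.5, with 6 of 7 transported goats above every control goat (difference 2.72, SE 0.78). In others with a higher mean goat 10 had the highest value. It held 87.2% of ENSCHIG00000001041, 83.0% of ENSCHIG00000002857 and 76.6% of ENSCHIG00000001024.

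On the lower side at 180 min, ENSCHIG00000004422 ran from 0 to 30.7 with a median of 6.0 against 14.8 to 61.5 with a median of 23.6, and 6 of 7 transported goats were below every control goat (difference -2.76, SE 0.79). ENSCHIG00000007631 ran from 0 to 3.87 against 1.85 to 62.4 (difference -2.72, SE 0.63). ENSCHIG00000005981, which overlaps B3GNT5 in RefSeq, ran from 0 to 26.4 against 11.3 to 90.3 (difference -1.93, SE 0.68). In these last 2 genes 4 of 7 transported goats lay below every control goat. ENSCHIG00000007521 (chromosome 6, 106685149 to 106836364, minus strand) was the only gene of the 77 that overlapped a listed protein-coding gene of the same table. That gene was HS3ST1, an enzyme that modifies heparan sulfate, on the same strand, with a difference of -1.31 beside -0.88 (SE 0.38) for the lincRNA. The spans overlap, and their reads could not be separated here.

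The 8 genes listed in both tables were 6 lincRNA, the smaller Mt_rRNA and the miRNA ENSCHIG00000001668. In 7 of the 8 both transported groups had lower means than the shared control goats, and for the miRNA the 30 min mean was lower and the 180 min mean higher. ENSCHIG00000002407 (chromosome 29, 46029219 to 46033741), which overlaps 2 protein-coding RefSeq genes, had the most reads of the 6 lincRNA. It was at 15.8, 15.2, 0 and 31.9 in 30 min goats against 28.4 to 87.3 with a median of 60.3 (difference -2.52, SE 0.80, and -1.42 without goat 24), and at 0 to 62.4 with a median of 14.4 in 180 min goats against 34.0 to 92.2 with a median of 63.2 (difference -2.29, SE 0.74). Below every control goat lay 3 of 4 goats at 30 min and 5 of 7 at 180 min. ENSCHIG00000004084 had no read in any 30 min goat and 0 to 6.81 in 180 min goats, and control goat 3 held the highest value in both tables. At 30 min its mean was at least 3.79-fold lower than in control goats, against the floor of 3 counts per library, or at least 2.40-fold without control goat 3. The highest control values of ENSCHIG00000001715 were in goats 8 and 9, of ENSCHIG00000006789 and ENSCHIG00000007524 in goats 3 and 8, and of ENSCHIG00000002014 in goats 3, 6 and 8.

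The transported groups are set side by side for these genes on reads scaled to each effective library, since the tables had been normalized separately. The genes were listed on the same goats, each group against the shared control goats, so the values are a description, and the permutation test planned for them supports nothing here. ENSCHIG00000001668 was at 1.43 to 4.05 reads per 1000000 in 30 min goats and at 5.20 to 198 with a median of 10.3 in 180 min goats. All 7 of the 180 min goats were above all 4 of the 30 min goats on that scale, and the difference of the log2 means was 2.51, 180 min minus 30 min. In control goats it ran from 1.97 to 34.7 with a median of 9.10, which spans both groups in part. For the other 7 genes the transported groups overlapped and the differences ran from -0.32 to 1.00.

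**Figure D5:**
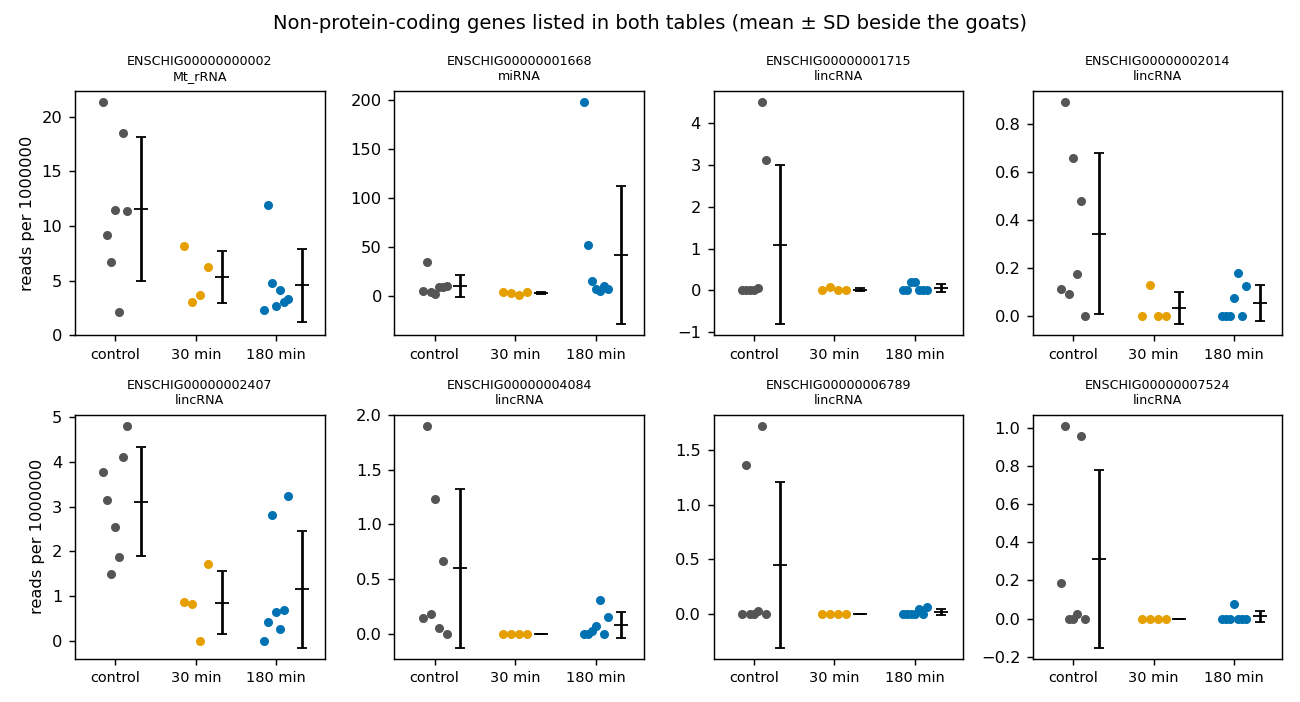
Reads per 1000000 of effective library (linear axes) of the 8 genes listed in both tables, with 1 point per goat in order of goat number and the mean ± SD beside each group. For the miRNA ENSCHIG00000001668 the 4 goats at 30 min lie at 1.43 to 4.05 and the 7 goats at 180 min at 5.20 to 198, and for the lincRNA the highest points are control goats.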

How the data were processed

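Reads were filtered (fastp) and aligned (HISAT2) by the authors. The counting tool and the genome build are not given in the sources used here. The deposited counts are whole reads per gene, the deposited normalized counts (a signal) are counts divided by a size factor for each goat and table, and the deposited FPKM are counts per gene length and effective library. Lengths of genes are as deposited. The tables also hold the authors' log2 fold changes, p-values and adjusted p-values. Only the deposited p-values were read, to check that every listed gene was under 0.05.

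The 77 genes, the marker and gene lists, and the alternatives were chosen with earlier results of these data known. Genes named were those in both tables, those without overlap between groups, in each class the 3 with the highest mean, the largest rise and the largest fall, and every gene with a name of its own in classes of 10 or fewer. A few more lincRNA, pseudogenes and the genes carried by goat 10 were named after their values were seen. limma 3.58.1 (two-sided) was fitted to log2(normalized count + 1) over every gene of a table, because the tables hold only listed genes and edgeR and DESeq2 need all genes for their factors. edgeR 4.0.16 and DESeq2 1.42.0 were alternatives. On simulated counts limma recovered 189 of 200 changed genes at 30 min and 194 of 200 at 180 min, with 13 false calls among 230 unchanged genes and 37 among 1047. The simulation drew changed genes from all listed genes and gave every gene the same relative spread and every change the same size. It therefore does not measure how limma performs on genes with few reads or genes carried by a single goat. The floors for a count of 0 cover counting error only. RefSeq gene positions were used for names and neighbours only, and 1040 of 1040 named listed genes on a chromosome of the same name overlapped there. R 4.3.3 and Python 3.11.15 with scipy 1.17.1 were used. No sample was left out. Depth ranged from 10443023 to 39473244 effective reads.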

Additional observations from a re-analysis of the deposited data

Results flagged for a closer look

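In 110 groups of 4 to 7 goats the highest or lowest goat was compared with its nearest neighbour by Dixon's ratio on the log2 scale, and 10 passed. Chance passes about 5% of groups, a rate that does not hold for 5 of the 10, in which every other goat was at 0. In the 30 min goats, goat 22 alone had reads of ENSCHIG00000001715 (1.6 normalized counts) and of ENSCHIG00000002014 (2.4), and goat 27 alone had reads of RF01684, ENSCHIG00000002870 (2.2). Goat 27 also stood below the other 30 min goats in the pseudogene ENSCHIG00000025850, at 228. Control goat 9 stood below the other control goats in ENSCHIG00000016371, at 0.882. In the 180 min goats, goat 11 stood high for the smaller Mt_rRNA ENSCHIG00000000002, at 229. Goat 10 was at 0 for the T cell receptor segment ENSCHIG00000007301, and goat 17 was at 0 for the immunoglobulin segment ENSCHIG00000009419. Goat 14 alone had reads of ENSCHIG00000007524 (1.7) and goat 16 alone of ENSCHIG00000019644 (0.8).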

How the results depend on the processing

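The number of genes called at 30 min, 11, depended on the method. It was 4 when goats were centred on the median listed gene, 21 with edgeR at the deposited size factors (3 higher and 18 lower), 19 with edgeR and TMM factors (3 and 16), 4 without control goats 3 and 8 (chosen after seeing the data), and 6 to 12 when each goat was left out in turn, with 6 without control goat 8 or goat 21 and 7 without goat 24. At 180 min, 31 became 47 with edgeR at the deposited size factors (22 higher and 25 lower), 48 with DESeq2 (15 and 33) and 28 to 37 without each goat. edgeR with TMM factors split 11 higher and 33 lower. The shares called of the genes that are not protein coding and those of all listed genes were, at 30 min, 80.8% and 70.7% with edgeR at the deposited size factors, 73.1% and 55.6% with TMM factors and 57.7% and 56% with DESeq2. At 180 min they were 79.7% and 81.6%, 74.6% and 58.1%, and 81.4% and 63.5% in the same order. Whether these genes were called less or more often than all listed genes turned between limma and edgeR at 30 min. At 180 min it turned within edgeR, between the deposited size factors and TMM factors. Genes without overlap numbered 1 to 5 at 30 min (5 without goat 27) and 0 to 2 at 180 min when goats were left out. For these counts, and for the calls with single goats left out, no share over all listed genes is given. They say nothing about how these genes differ from the other listed genes. The share with few reads at 30 min was 26.9% at under 5 and 61.5% at under 20 reads, and at 180 min 37.3% at under 5 and 64.4% at under 20 reads. No gene in either table had 10 reads or fewer in every goat (0%). An exact permutation test of 30 min against 180 min goats over the 8 shared genes was void, because those genes were listed on the same goats. It gave 1 gene with an unadjusted and 0 with an adjusted p under 0.05, and 0 to 1 with an unadjusted p under 0.05 when each goat was left out. Of the 55 differences of genes named by the rule, none reversed under any alternative run. Of their values under the alternatives, 15 moved by more than the spread between goats and 1001 did not, and 13 of the 15 moved with the pseudocount. No paired analysis was possible because no goat number occurs in more than 1 group. The cause of these differences was not tested.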
